A study of Mus musculus with 30 samples.

Results

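The genes described here are 41 mouse genes whose products copy the genome: the subunits that mark and license replication origins, the helicase that opens the DNA, the polymerases and their clamp, and the enzymes that supply deoxynucleotides. They were chosen by symbol from the platform annotation of 3 Affymetrix mouse array types, called A, B and C here. All 41 had at least 1 probe set that carried no other gene symbol, and 40 of them were tested, among 12589 genes tested in all. RNA came from pooled ovaries of mouse embryos at 5 ages, 11.5, 12.5, 14.5, 16.5 and 18.5 days post coitum (dpc). The mice were BL/6-129, a mixed background that every age shares, and the labels name no mutation or treatment. Gonads of 11.5 and 12.5 dpc were sexed by a PCR for Sry, the testis-determining gene of the Y chromosome. Each age had arrays numbered 1 and 2, with 1 array of each type per number, 30 arrays in all. The labels do not say whether the 3 arrays of a number received the same RNA. They are taken here as 1 sample, which gives 2 samples an age and 10 samples in all. Nothing in the labels says that the 2 samples of an age were separate pools of ovaries. The p-values set differences between ages against the spread within ages, which may be technical. If it is, they are too small for a statement about ovaries of an age.

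DNA replication begins at origins. The origin recognition complex (ORC) binds there and, with Cdc6 and Cdt1, loads the ring of Mcm2 to Mcm7 onto DNA while the cell is in G1, a step called licensing. Geminin, the product of Gmnn, binds Cdt1 and blocks licensing again once S phase has begun. Cdc7 kinase and Cdc45 help turn the loaded ring into a moving helicase. Primase and polymerase alpha start each new strand, polymerases epsilon and delta extend it on the sliding clamp PCNA, RPA coats the bare single strand, and FEN1 and DNA ligase join the Okazaki fragments. Many of these genes are known targets of E2F transcription factors, which are held in check by the retinoblastoma family, and their transcripts are usually high in dividing cells. In the embryonic ovary, oogonia divide by mitosis, carry out a last round of DNA synthesis before meiosis and then enter meiotic prophase, and pregranulosa cells, the somatic supporting cells, are known to slow or leave the cell cycle in this period.

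A value here is the deposited signal of a probe set, scaled by the authors to a mean of 125 on each array. Changes are differences of log2(signal + 16), which understate the change of weak probe sets, given with their standard error. A gene was called when its limma adjusted p, taken over all probe sets of the 3 array types, was under 0.05. Where several probe sets of a gene were tested, the brightest on average stands for it, on array A for 31 of the 40 genes, on B for 2 and on C for 7. Genes of ovarian cells were read at the first and last age: Foxl2, of pregranulosa cells, had signals of 94.5 and 89.5 at 11.5 dpc and 667 and 793 at 18.5 dpc, and Ddx4, of germ cells, 41.7 and 85.5 and 327 and 355. The Ddx4 signal of 41.7 lies under the 50 used in the filter on low signal. The 2 samples of 11.5 dpc differed for the replication genes. In replicate 1 of 11.5 dpc, 30 of the 40 genes were higher than in replicate 2, with a median log2 difference of 0.22 against -0.03 over all genes, and 13 of the 40 reached their highest signal of the 10 samples there. Replicate 2 had the lowest median level of the 40 genes among the early samples, so which of the 2 departed cannot be told. At 14.5 dpc replicate 1 was likewise the higher for 26 of the 40, with a median difference of 0.14 against -0.02 over all genes. The matching counts over all genes were not taken.

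Many replication genes fell between the early ovary (11.5 and 12.5 dpc) and the late ovary (16.5 and 18.5 dpc). With the 4 late samples set against the 4 early ones, 18 of the 40 genes tested fell and 1 rose. Over all genes tested, 11.4% fell and 13.1% rose in that comparison. The genes that fell were Mcm2, Mcm3, Mcm4, Mcm7, Orc1, Cdc6, Cdt1, Pcna, Pola1, Pola2, Pold2, Pole2, Prim1, Rpa1, Rpa3, Fen1, Rrm1 and Rrm2, and the gene that rose was Orc5. The median log2 change of the 40 genes was -0.54, against 0.01 over all genes tested. Changes ran from -1.54 ± 0.12 for Rrm2 to 0.50 ± 0.27 for Orc4, which was not called. In tissue RNA, fewer dividing cells and less of these transcripts per cell cannot be told apart.

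In 20 of the 40 genes every late sample lay below every early sample, and in 0 of them every late sample lay above. The 20 were the 18 genes called lower, Mcm5 and Rfc5. Over all genes tested these shares were 11.2% and 12.8%. The highest mean signal was at 11.5 or 12.5 dpc for 29 of the 40 genes, against 40.3% of all genes tested. The lowest mean was at 16.5 or 18.5 dpc for 33 of the 40, against 43.4% of all genes. A moderated F test over the 5 ages called 16 of the 40, where 17.8% of all genes were called. Without replicate 1 of 11.5 dpc, 17 genes fell between early and late, and Prim1 was the gene no longer called. Without replicate 2 of that age 21 fell: Pola2 was no longer called, and Gmnn, Prim2, Rpa2 and Tk1 were. The loss of any other single sample left most of the 18 genes called lower. The shares of all genes called in fits without 1 sample are not given, so counts from such fits describe the stability of the calls only.

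**Figure D1:**
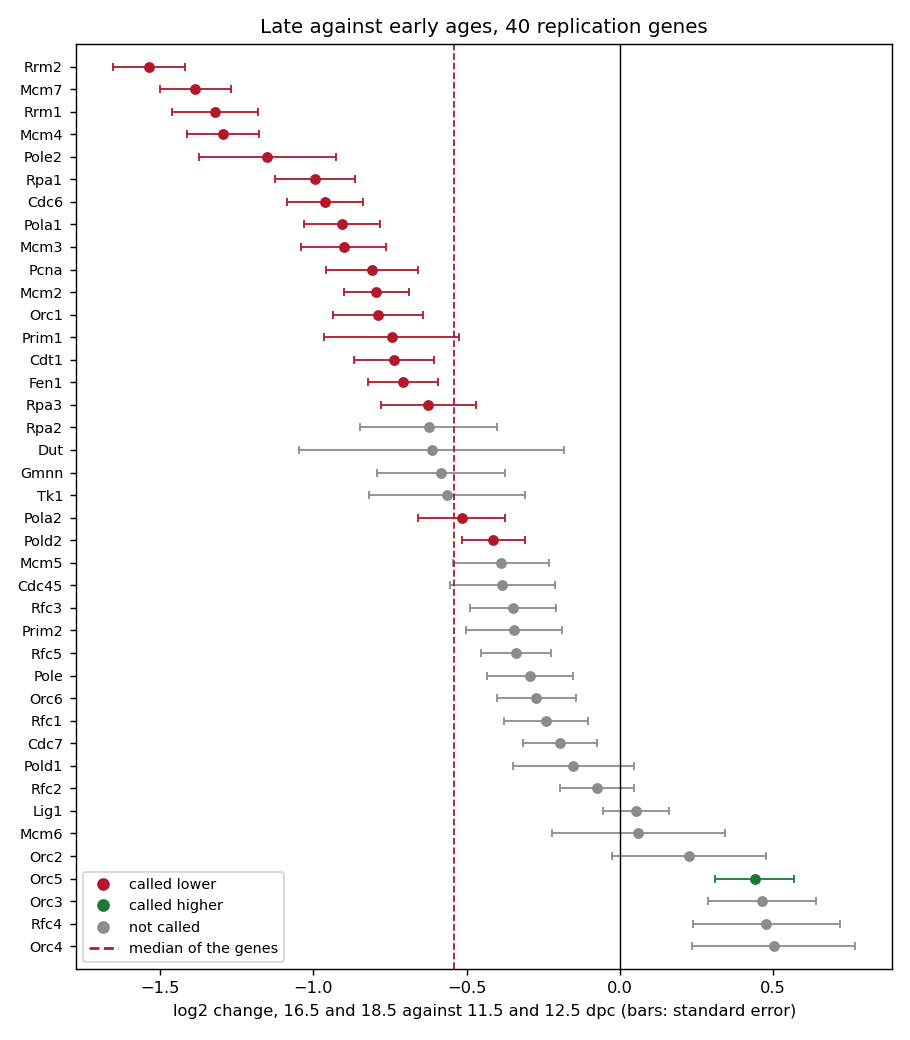
Each row is 1 of 40 replication genes, placed by its log2 change between the 4 early samples (11.5 and 12.5 dpc) and the 4 late samples (16.5 and 18.5 dpc), with its standard error as a bar. Red points are the 18 genes called lower, the green point is Orc5, grey points were not called, and the dashed line is the median of the 40 genes, -0.54.

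Counts and medians were then taken for each interval between neighbouring ages. From 11.5 to 12.5 dpc, limma called 0 of 40 genes in either direction (0.0477% of all genes were called lower and 0.191% higher), with a median of -0.04. At an unadjusted p under 0.05, 4 of the 40 were lower and 2 higher, and the shares of all genes by that measure were 5.72% and 6.67%. The median was 0.09 without replicate 1 of 11.5 dpc and 0.03 without replicate 1 of 12.5 dpc. Without replicate 2 of 11.5 dpc, Gmnn, Pcna, Prim1 and Rrm1 were called lower over this interval. Between 12.5 and 14.5 dpc, Mcm2, Mcm7 and Rrm2 fell, 3 of 40 against 0.564% of all genes, and 0 rose against 1.6%. The median of the 40 genes over this interval was -0.11, and it was -0.05 without replicate 2 of 14.5 dpc and -0.06 without replicate 2 of 12.5 dpc. These 3 calls were lost together when 1 sample was left out in 7 of 10 cases: either replicate of 12.5, 16.5 or 18.5 dpc, or replicate 2 of 14.5 dpc. Without replicate 1 of 14.5 dpc, Mcm7 alone was called. With either 11.5 dpc sample left out, Mcm4 was called lower and Prim1 higher as well.

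The largest median change over an interval, for these 40 genes, lay between 14.5 and 16.5 dpc. There 38 of the 40 genes had a lower mean log2 signal at 16.5 dpc, where 50.5% of all genes did. The median change was -0.46, against -0.01 over all genes. Even so, limma called 0 genes in either direction after adjustment, where 0.524% of all genes were called lower and 0.334% higher. At an unadjusted p under 0.05, 22 of the 40 were lower and 0 higher, where 9.19% of all genes were lower and 8.29% higher by that measure. Prim1 came closest, at -1.50 ± 0.31 (adjusted p = 0.051). The calls depended on the 11.5 dpc samples, which enter the shared estimate of the spread. Genes were called lower here when either of them was left out. The share of all genes called in those fits is not given. Without replicate 1 of 16.5 dpc, Orc2 alone was called lower.

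From 16.5 to 18.5 dpc the 40 genes had a median change of 0.07, and limma called 0 of them in either direction, where 0.254% of all genes were called lower and 0.588% higher. At an unadjusted p under 0.05, 1 of the 40 was lower and 4 higher, against 7.58% and 6.97% of all genes. The median was -0.01 without replicate 2 of 16.5 dpc, and also with the mean of a gene's probe sets. Gmnn was called higher when either 11.5 dpc sample was left out. Between the ends of the series, 18.5 against 11.5 dpc, 14 genes fell and Orc5 rose, where 8.37% of all genes fell and 9.14% rose. The median of the 40 genes over that span was -0.34. Dropping replicate 1 of 11.5 dpc gave a median of -0.21.

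**Figure D2:**
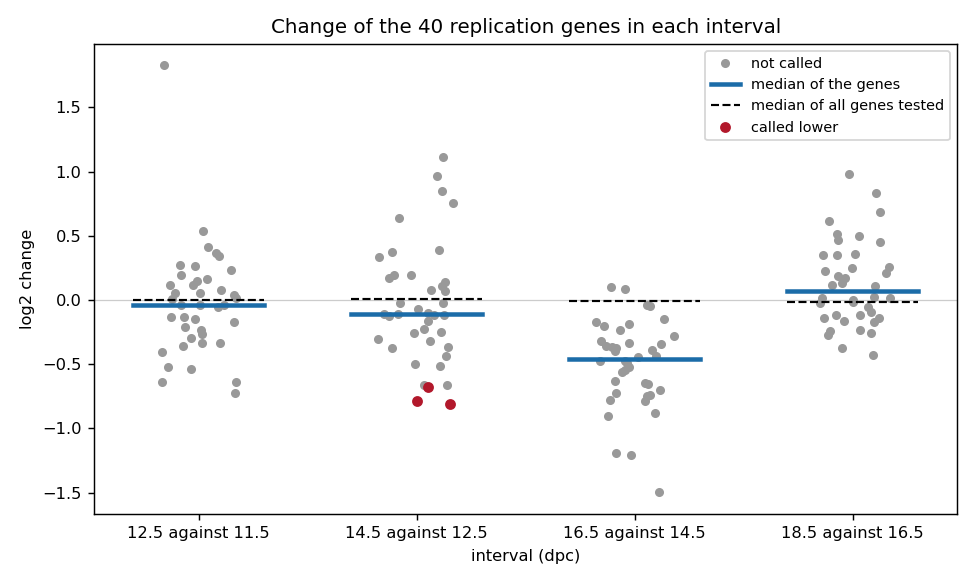
Log2 changes of the 40 replication genes over the 4 successive intervals, 1 point per gene, spread sideways for legibility. Blue bars mark the median of the 40 genes (-0.04, -0.11, -0.46 and 0.07 in order), dashed lines the median of all genes tested, and red points the 3 genes called lower between 12.5 and 14.5 dpc.

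Because many of these genes moved together, their promoters were read for 2 kinds of short sequence. Promoter windows came from RefSeq (GRCm38.p6) and covered the 250 bases before an annotated start, and 36 of the 41 genes had one. The E2F-type words searched were TTTCCCGC, TTTCGCGC, TTTGCCGC and TTTGGCGC, and the other word was CCAAT, which factors of the NF-Y type recognise. Both strands were searched, a gene with several windows counted if any of them held the word, and TTTGGCGC and TTTCGCGC can overlap on opposite strands. An E2F-type word lay upstream of 8 of the 36 genes (22.2%), against 583 of 27025 genes in the table (2.16%). They were Mcm5, Mcm6, Mcm7, Orc1, Orc3, Cdc6, Pola1 and Rfc3. Among the 17 genes called lower in the late ovary that had a window, 4 (23.5%) held such a word. Among the 18 tested genes not called lower, 4 (22.2%) did: Mcm5, Mcm6, Orc3 and Rfc3. Another Mcm5 probe set, on array A, was called lower (-0.57 ± 0.11, limma adjusted p = 0.0033), and Mcm6 signals split between replicates. The 2 shares are therefore not a firm comparison. CCAAT lay upstream of 21 of the 36 genes (58.3%), against 37.5% of all genes in the table. It was present for 12 of the 17 genes called lower (70.6%) and 9 of the 18 not called lower (50%). A match is a description of letters, not a bound site.

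The windows of 3 genes are shown whole, since they set genes that fell beside a gene that was not called. They are Rrm2, with the largest fall of the 40 from early to late, Mcm2, which fell by 14.5 dpc, and Mcm6. The Mcm6 window holds both kinds of word. Mcm6 was not called on its array C probe sets, but these split between replicates and do not show that the gene held its level. Capitals mark the E2F-type words and CCAAT, the latter reading ATTGG where it lies on the opposite strand. The Rrm2 window is chr12:24708004-24708253 (plus strand), the Mcm2 window chr6:88898781-88899030 (minus strand) and the Mcm6 window chr1:128359706-128359955 (minus strand). Each ends at the base before the annotated start, and none overlapped a neighbouring gene.
Rrm2: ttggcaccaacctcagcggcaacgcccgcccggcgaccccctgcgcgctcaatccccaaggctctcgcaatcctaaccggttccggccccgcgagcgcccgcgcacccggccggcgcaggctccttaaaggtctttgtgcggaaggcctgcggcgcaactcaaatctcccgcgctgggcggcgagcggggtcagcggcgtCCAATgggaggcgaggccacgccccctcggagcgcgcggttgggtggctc
Mcm2: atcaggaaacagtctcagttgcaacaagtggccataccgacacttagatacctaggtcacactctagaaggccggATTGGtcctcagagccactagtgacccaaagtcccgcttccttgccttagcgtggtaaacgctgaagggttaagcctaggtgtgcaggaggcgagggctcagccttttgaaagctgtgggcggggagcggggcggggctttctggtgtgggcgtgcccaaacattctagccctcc
Mcm6: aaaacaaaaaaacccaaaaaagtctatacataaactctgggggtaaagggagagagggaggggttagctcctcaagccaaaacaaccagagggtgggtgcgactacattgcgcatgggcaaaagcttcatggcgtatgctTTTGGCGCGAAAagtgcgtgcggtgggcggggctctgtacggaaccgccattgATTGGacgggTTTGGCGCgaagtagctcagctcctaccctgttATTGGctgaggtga

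Stretches of 30 bases around the E2F-type word are shown for 4 genes that fell, Mcm7, Orc1, Cdc6 and Pola1, and for 2 that were not called, Orc3 and Rfc3, so that the words can be compared. Their positions are chr5:138172030-138172059 (Mcm7, minus strand), chr4:108579416-108579445 (Orc1, plus strand), chr11:98908002-98908031 (Cdc6, plus strand), chrX:93632275-93632304 (Pola1, minus strand), chr4:34614965-34614994 (Orc3, minus strand) and chr5:151651209-151651238 (Rfc3, minus strand). The Mcm7 stretch also lies within the neighbouring gene Ap4m1, and the Orc3 stretch within Rars2. Those of Mcm7, Orc1, Cdc6 and Pola1 lie within the annotated span of their own gene. In Mcm7, Orc1, Cdc6 and Pola1 the word reads on the opposite strand, and in Orc3 and Rfc3 on the strand of the gene. Mcm5 and Mcm6, not called on the probe sets that stand for them, held such words on both strands. Strand was not read as a divide between genes that fell and the rest.
Mcm7: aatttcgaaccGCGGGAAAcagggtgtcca
Orc1: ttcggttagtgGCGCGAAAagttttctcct
Cdc6: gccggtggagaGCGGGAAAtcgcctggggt
Pola1: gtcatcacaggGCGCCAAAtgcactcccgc
Orc3: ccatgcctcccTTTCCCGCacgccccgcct
Rfc3: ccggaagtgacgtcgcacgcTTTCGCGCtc

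The 6 subunits of the origin recognition complex did not move in 1 direction. Orc1, the ATPase subunit whose protein level follows the cell cycle, fell, Orc5 rose, and the other four were not called in any comparison. Orc1 signals were 100.3 and 138 (11.5 dpc), 116 and 112 (12.5 dpc), 111 and 104 (14.5 dpc), 70.3 and 51.0 (16.5 dpc), then 65.4 and 56.3 (18.5 dpc). They stayed near their early level through 14.5 dpc and were lower in all 4 late samples. The change from early to late was -0.79 ± 0.15 (1.73-fold, adjusted p = 0.0027). Its fall between 11.5 and 18.5 dpc (-0.80 ± 0.21, adjusted p = 0.023) was not called without replicate 2 of 11.5 dpc, without either 18.5 dpc sample, or with only those ages in the fit.

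Orc5, a core ORC subunit, ran the other way, with signals of 157 and 133 (11.5 dpc), 174 and 201 (12.5 dpc), 231 and 171 (14.5 dpc), 194 and 191 (16.5 dpc), then 249.5 and 296 (18.5 dpc). Both 18.5 dpc samples lay above all 8 younger samples, while the 16.5 dpc samples lay within the range of 12.5 dpc, so the early and late groups overlapped. Orc5 rose by 0.84 ± 0.18 from 11.5 to 18.5 dpc (1.79-fold, adjusted p = 0.0094), a call lost without replicate 2 of 18.5 dpc. Its rise from early to late, 0.44 ± 0.13 (adjusted p = 0.032), was not called with each array centred on its median. It was also lost when replicate 2 of 11.5 dpc or any 1 sample of 12.5, 16.5 or 18.5 dpc was left out. Late against early, Orc3 and Rfc4 were called higher as well without replicate 1 of 11.5 dpc.

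Among Orc2, Orc3, Orc4 and Orc6 the late against early change ran from -0.27 ± 0.13 for Orc6 to 0.50 ± 0.27 for Orc4. The Orc4 probe set on array C split the replicates: replicate 2 read 535 at 16.5 dpc and 569 at 18.5 dpc, and replicate 1 read 229.7 and 284. A second Orc4 probe set, on array A, was called higher from early to late at 0.55 ± 0.16 (adjusted p = 0.027). Further Orc3 probe sets, on array C, gave -0.59 ± 0.39 and 0.28 ± 0.20 from early to late and were not called. Orc2 was highest at 14.5 dpc, 108 and 102, and its 16.5 dpc samples differed widely, 88.8 and 24.2.

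**Figure D3:**
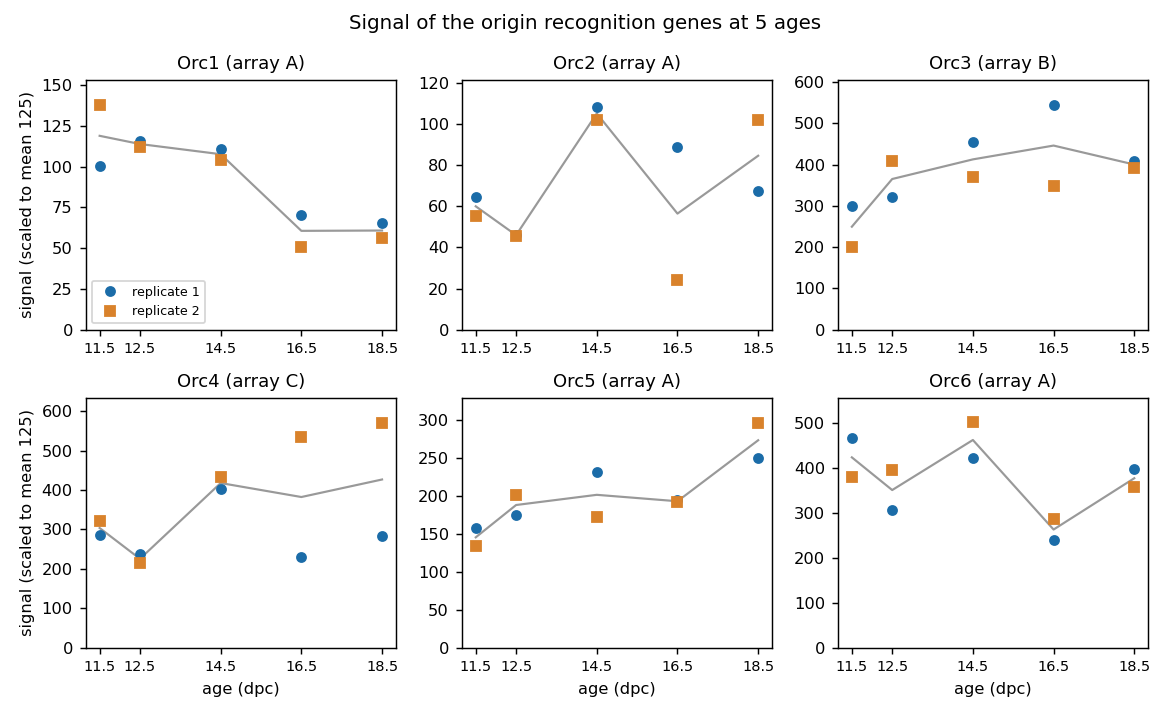
Signal of the 6 origin recognition genes against age, with circles for replicate 1, squares for replicate 2 and a grey line through the mean of the 2 samples. Orc1 is lower in all 4 late samples, from 51.0 to 70.3, than in the early ones, Orc5 is highest at 18.5 dpc, and Orc2 and Orc4 show wide replicate gaps at 16.5 dpc.

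Both licensing factors, Cdc6 and Cdt1, fell from early to late. Gmnn, which encodes the inhibitor of Cdt1, was not called in that comparison, but it was called lower without replicate 2 of 11.5 dpc, with adjustment within each array type and on array A alone. Cdc6, the ATPase that joins ORC to load the Mcm ring, had signals of 220.3 and 203 (11.5 dpc), 173 and 189 (12.5 dpc), 152 and 121 (14.5 dpc), 99.4 and 85.2 (16.5 dpc), then 93.1 and 93.5 (18.5 dpc). The samples stepped down from 11.5 to 16.5 dpc without overlap between early and late. Cdc6 fell by 0.96 ± 0.12 from early to late (1.95-fold, adjusted p = 0.00022).

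Cdt1, the partner that brings the Mcm ring to ORC, read 352 and 362 (11.5 dpc), 386 and 371 (12.5 dpc), 227 and 298 (14.5 dpc), 202 and 258 (16.5 dpc), then 179 and 225 (18.5 dpc). Its early samples lay close together and above all later ones. The fall from early to late was 0.74 ± 0.13 (adjusted p = 0.002), and a second Cdt1 probe set on array A also fell, by 0.52 ± 0.13 (adjusted p = 0.014). The fall from 11.5 to 18.5 dpc (adjusted p = 0.014) was not called without replicate 1 of 18.5 dpc.

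Gmnn signals were 472 and 193 (11.5 dpc), 254 and 213 (12.5 dpc), 329 and 286 (14.5 dpc), 131 and 119 (16.5 dpc), then 239 and 230.2 (18.5 dpc). Replicate 1 of 11.5 dpc was far above its partner, and both 16.5 dpc samples were the lowest of the 10. The late against early change was -0.58 ± 0.21 (adjusted p = 0.067), and the change from 14.5 to 16.5 dpc was -1.19 ± 0.29 (adjusted p = 0.082).

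The Mcm2 to Mcm7 proteins form the replicative helicase, 1 subunit of each in the ring. Mcm2, Mcm3, Mcm4 and Mcm7 fell, and Mcm5 and Mcm6 were not called on the probe sets that stand for them. Mcm7 signals were 703 and 725 (11.5 dpc), 743 and 806 (12.5 dpc), 518 and 378 (14.5 dpc), 320.4 and 309 (16.5 dpc), then 238 and 240.2 (18.5 dpc). All samples from 14.5 dpc onward lay below the early ones, and the mean was lower at each later age. It fell by 0.78 ± 0.16 between 12.5 and 14.5 dpc (1.72-fold, adjusted p = 0.036) and by 1.39 ± 0.12 from early to late (2.61-fold, adjusted p = 8.3e-06).

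Mcm4 read 567 and 482 (11.5 dpc), 515 and 439 (12.5 dpc), 284 and 307 (14.5 dpc), 237 and 192 (16.5 dpc), then 172 and 179 (18.5 dpc). All 6 samples from 14.5 dpc onward lay below all 4 early samples. Mcm4 fell by 1.29 ± 0.12 from early to late (2.45-fold, adjusted p = 1.6e-05), and its change from 12.5 to 14.5 dpc, -0.66 ± 0.17, was not called (adjusted p = 0.073). Mcm2 had signals of 409 and 388 (11.5 dpc), 409.7 and 368 (12.5 dpc), 230.2 and 244 (14.5 dpc), 244 and 216 (16.5 dpc), then 213 and 209 (18.5 dpc). The 6 samples from 14.5 dpc onward lay within a narrow band below the early ones. Mcm2 fell by 0.68 ± 0.15 from 12.5 to 14.5 dpc (adjusted p = 0.046), and the changes over the 2 later intervals were -0.04 ± 0.15 and -0.11 ± 0.15. From early to late Mcm2 fell by 0.79 ± 0.11 (adjusted p = 0.0003).

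Mcm3 kept its level longer, with signals of 734 and 487 (11.5 dpc), 570.3 and 492 (12.5 dpc), 487 and 489.8 (14.5 dpc), 281 and 339 (16.5 dpc), then 301 and 260.0 (18.5 dpc). The 14.5 dpc samples matched the lower early ones, and all 4 late samples were lower. Between 14.5 and 16.5 dpc the change of -0.63 ± 0.20 was not called (adjusted p = 0.14). From early to late Mcm3 fell by 0.90 ± 0.14 (adjusted p = 0.00074), and a second probe set on array A fell by 1.11 ± 0.16 (adjusted p = 0.0005).

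Mcm5 is represented by a probe set on array C, with 1169 and 1374 (11.5 dpc), 1364 and 1246 (12.5 dpc), 1086 and 1348 (14.5 dpc), 1123 and 779 (16.5 dpc), then 1019 and 1032 (18.5 dpc). All 4 late samples lay below all 4 early ones, but the change of -0.39 ± 0.16 was not called (adjusted p = 0.1). The Mcm5 probe set on array A was called lower from early to late at -0.57 ± 0.11 (adjusted p = 0.0033). The 2 probe sets thus had the same direction and differed in the call. Mcm6, also on array C, read 198 and 143 (11.5 dpc), 132 and 175 (12.5 dpc), 148 and 151 (14.5 dpc), 72.7 and 176 (16.5 dpc), then 301 and 194 (18.5 dpc). Its replicates overlapped across ages and the late against early change was 0.06 ± 0.28 (adjusted p = 0.91). A second Mcm6 probe set on that array gave 0.12 ± 0.35.

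**Figure D4:**
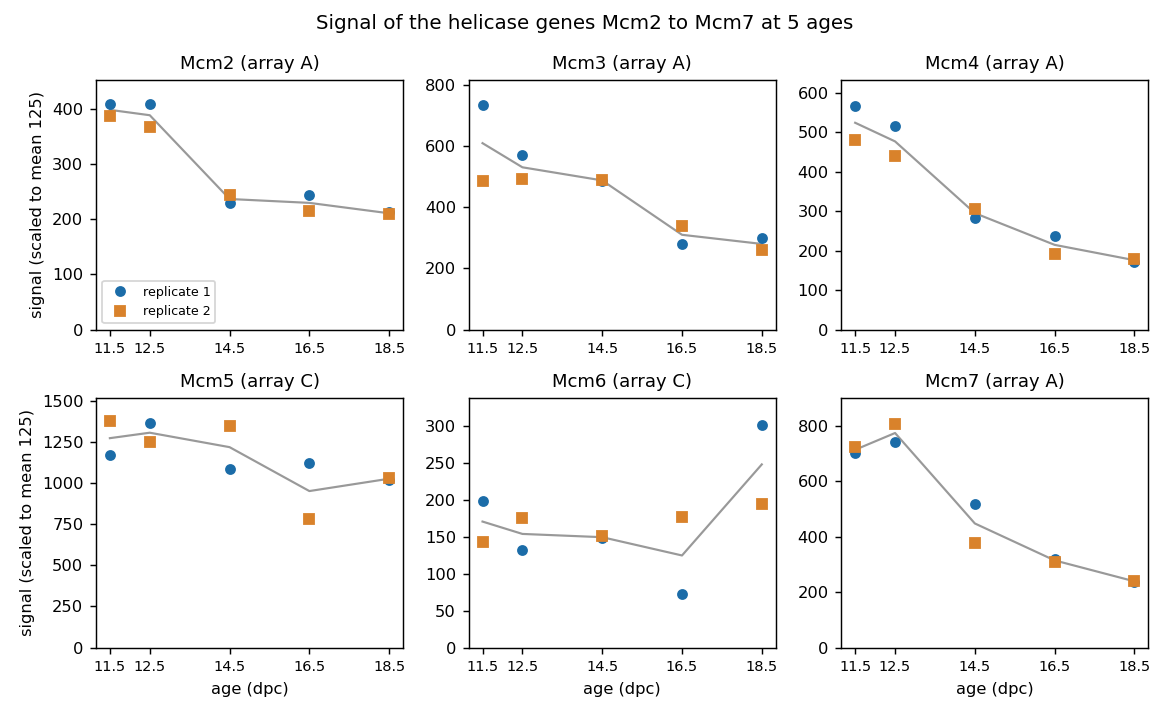
Signal of Mcm2 to Mcm7 against age, with circles for replicate 1, squares for replicate 2 and a grey line through the mean of the 2 samples. Mcm2, Mcm4 and Mcm7 are lower from 14.5 dpc onward, Mcm3 is lower from 16.5 dpc, and Mcm6 has no common direction in its replicates.

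The 2 genes that act on the loaded helicase were not called. Cdc45, the helicase subunit recruited at firing, changed by -0.38 ± 0.17 from early to late (adjusted p = 0.14), and its lowest mean, 72.8 ± 8.84 (SD, n = 2), was at 18.5 dpc. Cdc7, the kinase that phosphorylates the Mcm ring, read 128 and 125 (11.5 dpc), 130.3 and 148 (12.5 dpc), 159 and 135 (14.5 dpc), 126 and 124 (16.5 dpc), then 96.8 and 112 (18.5 dpc). Its samples stayed within a narrow band with the lowest pair at 18.5 dpc, and the late against early change was -0.19 ± 0.12 (adjusted p = 0.3).

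Of the 4 genes of the primase and polymerase alpha complex, 3 fell. Pola1, the catalytic subunit of polymerase alpha, had signals of 174 and 153 (11.5 dpc), 166 and 175 (12.5 dpc), 136 and 108 (14.5 dpc), 84.1 and 82.3 (16.5 dpc), then 76.5 and 82.7 (18.5 dpc). The 4 late samples lay close together, below all early and 14.5 dpc samples. Pola1 fell by 0.91 ± 0.12 from early to late (1.88-fold, adjusted p = 0.00034). Its fall from 11.5 to 18.5 dpc (adjusted p = 0.0048) was not called without replicate 1 of 18.5 dpc.

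Pola2, the accessory subunit of polymerase alpha, read 145 and 181 (11.5 dpc), 225 and 176 (12.5 dpc), 150.4 and 178 (14.5 dpc), 139.8 and 105 (16.5 dpc), then 129.5 and 112 (18.5 dpc). Late and early samples did not overlap, though the gap was small. A second, weaker probe set on array A gave -0.46 ± 0.34 from early to late and was not called (adjusted p = 0.39). On the brighter probe set the fall was 0.52 ± 0.14 (adjusted p = 0.022). That call was lost without replicate 2 of 11.5, 16.5 or 18.5 dpc or replicate 1 of 12.5 dpc, and when a gene's probe sets were averaged. Prim1, the catalytic primase subunit, read 323 and 142 (11.5 dpc), 113 and 137 (12.5 dpc), 341 and 244 (14.5 dpc), 82.1 and 102 (16.5 dpc), then 75.0 and 111 (18.5 dpc). It had 2 high points, in replicate 1 of 11.5 dpc and in both 14.5 dpc samples, and was lowest in the late ovary. Prim1 fell by 0.74 ± 0.22 from early to late (adjusted p = 0.031), and the call was lost without replicate 1 of any age but 14.5 dpc or replicate 2 of 12.5 or 16.5 dpc. Without a filter on low signal or without the intensity trend it was lost as well. Its fall from 11.5 to 18.5 dpc (-1.11 ± 0.31, adjusted p = 0.032) was lost without replicate 1 of 11.5 dpc or either 18.5 dpc sample. It was also lost with no filter on low signal, without the intensity trend and with only those ages in the fit. The fit on the mean of a gene's probe sets, which took the array types together, lost it too, though Prim1 itself had nothing to average. Prim2, the large primase subunit, was not called, at -0.34 ± 0.16 (adjusted p = 0.15).

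The polymerases that extend the strands gave 2 falls among 4 genes. Pole2, the second subunit of polymerase epsilon, was a weak probe set that read 100 and 59.2 (11.5 dpc), 35.1 and 54.2 (12.5 dpc), 49.5 and 30.8 (14.5 dpc), 23.6 and 15.5 (16.5 dpc), then 17.3 and 15 (18.5 dpc). Every late sample was below every sample of 11.5, 12.5 and 14.5 dpc. Pole2 fell by 1.15 ± 0.22 from early to late (2.22-fold, adjusted p = 0.0034), and its fall from 11.5 to 18.5 dpc (adjusted p = 0.0067) was not called without replicate 1 of 11.5 dpc. Pold2, the second subunit of polymerase delta, read 327 and 331 (11.5 dpc), 397 and 362 (12.5 dpc), 308 and 301 (14.5 dpc), 234 and 244 (16.5 dpc), then 271 and 302 (18.5 dpc). It was highest at 12.5 dpc and lowest at 16.5 dpc, with a fall of 0.41 ± 0.10 (adjusted p = 0.015) that was not called without replicate 1 of 12.5 or of 18.5 dpc.

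The catalytic subunits of the same enzymes were not called. Pole changed by -0.29 ± 0.14 (adjusted p = 0.17). Pold1 on array C peaked at 14.5 dpc, at 433 and 621, and its late against early change was -0.15 ± 0.20 (adjusted p = 0.65). The Pold1 probe set on array A was called lower from early to late, at -0.49 ± 0.12 (adjusted p = 0.013).

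Pcna, the sliding clamp, fell, and the clamp loader genes were not called. Pcna signals were 2286 and 1334 (11.5 dpc), 1245 and 1158 (12.5 dpc), 1393 and 1258 (14.5 dpc), 709.9 and 818 (16.5 dpc), then 960.1 and 811 (18.5 dpc). Replicate 1 of 11.5 dpc was the highest sample by a wide margin, and the late samples lay below all others. Pcna fell by 0.81 ± 0.15 from early to late (1.75-fold, adjusted p = 0.0027), and this call held without replicate 1 of 11.5 dpc. The fall from 11.5 to 18.5 dpc (adjusted p = 0.0098) was not called without replicate 2 of 18.5 dpc or with only those ages in the fit. None of the 5 clamp loader genes, Rfc1 to Rfc5, was called in any comparison. Their late against early changes ran from -0.35 ± 0.14 for Rfc3 to 0.48 ± 0.24 for Rfc4, and Rfc5 had the smallest adjusted p, 0.057. Rfc5 was called lower with a filter at 100, after quantile normalization, with median centring, with adjustment within each array type and on array A alone. A second Rfc5 probe set, also on array A, gave -0.04 ± 0.16 from early to late (adjusted p = 0.9). Rfc4 was split at 11.5 dpc, 440.5 and 167, and was highest at 14.5 dpc, 573 and 396.

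The single-strand binding protein RPA has 3 subunits. Rpa1, the large subunit that holds most of the DNA contact, read 438 and 334 (11.5 dpc), 270.3 and 252 (12.5 dpc), 201 and 162 (14.5 dpc), 157 and 127 (16.5 dpc), then 162 and 160.2 (18.5 dpc). The mean was lower at each age to 16.5 dpc, and all 6 samples from 14.5 dpc onward lay below the 4 early ones. Rpa1 fell by 0.99 ± 0.13 from early to late (1.99-fold, adjusted p = 0.00026). A second Rpa1 probe set, on array C, gave -0.63 ± 0.33 and was not called (adjusted p = 0.21). Rpa3, the small subunit, read 552 and 334 (11.5 dpc), 345 and 332 (12.5 dpc), 409 and 368 (14.5 dpc), 184 and 226 (16.5 dpc), then 319.7 and 255 (18.5 dpc). It stayed near its early level at 14.5 dpc and was lowest at 16.5 dpc, with a fall of 0.62 ± 0.15 from early to late (adjusted p = 0.013). This call was lost without replicate 1 of 16.5 dpc or replicate 2 of 18.5 dpc. Rpa2, the middle subunit, gave -0.62 ± 0.22 (adjusted p = 0.068), and its second probe set on array A gave -0.33 ± 0.13 (adjusted p = 0.11).

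Of the enzymes that finish Okazaki fragments, Fen1 fell and Lig1 was not called. Fen1, the flap nuclease, read 209.6 and 200.1 (11.5 dpc), 242 and 219.6 (12.5 dpc), 194 and 196 (14.5 dpc), 99.5 and 123 (16.5 dpc), then 147 and 143 (18.5 dpc). The late samples lay below all others, with the lowest pair at 16.5 dpc. Fen1 fell by 0.71 ± 0.12 from early to late (1.63-fold, adjusted p = 0.0011). Lig1, the replicative DNA ligase, was highest at 14.5 dpc, 358 and 347, and its early to late change was 0.05 ± 0.11 (adjusted p = 0.78).

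Both genes of ribonucleotide reductase, the enzyme that makes deoxynucleotides from ribonucleotides, fell, and Rrm2 had the largest fall of the 40 genes from early to late. Rrm2, its small subunit, which is restricted to S phase, read 555 and 427 (11.5 dpc), 429.6 and 392 (12.5 dpc), 238 and 217 (14.5 dpc), 151 and 155 (16.5 dpc), then 132 and 137 (18.5 dpc). The mean was lower at each successive age, and the 4 late samples lay below all others. Rrm2 fell by 0.81 ± 0.17 from 12.5 to 14.5 dpc (1.75-fold, adjusted p = 0.031) and by 1.54 ± 0.12 from early to late (2.90-fold, adjusted p = 4.1e-06). Rrm1, the large catalytic subunit, read 726 and 516 (11.5 dpc), 354 and 423 (12.5 dpc), 351 and 268 (14.5 dpc), 209.8 and 201 (16.5 dpc), then 155 and 180.2 (18.5 dpc). Its means at 11.5 and 12.5 dpc were 621 ± 148 and 388 ± 49.1 (SD, n = 2), a difference that was not called (adjusted p = 0.22). From early to late Rrm1 fell by 1.32 ± 0.14 (2.5-fold, adjusted p = 5.1e-05). Its second probe set, on array C, gave 0.11 ± 0.41 (adjusted p = 0.88), and averaging the probe sets removed the call between 11.5 and 18.5 dpc but not the call from early to late.

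The other nucleotide genes were not called. Tk1, thymidine kinase, had signals of 1332 and 531 at 11.5 dpc and 621 and 502 at 18.5 dpc on array C, and the change of -0.56 ± 0.25 from early to late was not called (adjusted p = 0.14). Its 3 further probe sets were not called either. Dut, dUTPase, had the widest log2 gap between replicates of the 40 genes at 11.5, 14.5 and 16.5 dpc, with 31.5 and 136 at 11.5 dpc and 130.3 and 30.4 at 16.5 dpc, and changed by -0.61 ± 0.43 (adjusted p = 0.36). The probe set of Tyms, thymidylate synthase, did not pass the filter on low signal, and 2 further ones carry a second gene symbol and were not used.

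**Figure D5:**
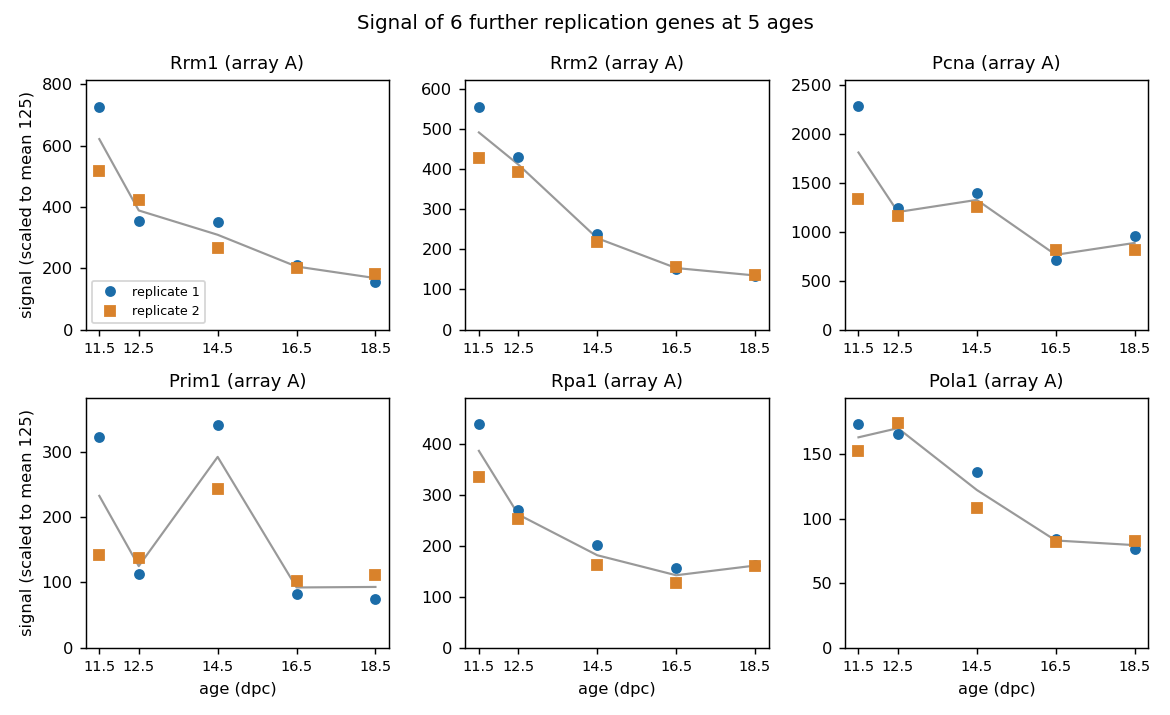
Signal of Rrm1, Rrm2, Pcna, Prim1, Rpa1 and Pola1 against age, with circles for replicate 1, squares for replicate 2 and a grey line through the mean of the 2 samples. The means of Rrm1, Rrm2 and Rpa1 are lower at each age from 11.5 to 16.5 dpc, Prim1 has a second high point at 14.5 dpc, and replicate 1 of 11.5 dpc is the highest sample for Rrm1, Rrm2, Pcna and Rpa1.

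Other genes of DNA replication were taken from a list that holds none of the 41. Of 46 listed, 42 were tested, and 13 fell and 4 rose from early to late, where 11.4% of all genes fell and 13.1% rose. Their median change was -0.34, against 0.01 over all genes. The difference between this list and the 40 genes was not tested. Top2a, the topoisomerase that untangles daughter strands, had signals of 546 and 448 (11.5 dpc), 513 and 482 (12.5 dpc), 465 and 362 (14.5 dpc), 269 and 248 (16.5 dpc), then 135 and 134 (18.5 dpc) and fell by 1.33 ± 0.12 (adjusted p = 1.4e-05). It was the single gene of that list called between neighbouring ages, lower at 18.5 than at 16.5 dpc (adjusted p = 0.044). Dna2, a flap nuclease that works beside FEN1, fell by 1.24 ± 0.17 (adjusted p = 0.00035). Nme1, a nucleoside diphosphate kinase, fell by 1.26 ± 0.16, and Atad5, which unloads PCNA, by 1.14 ± 0.19. The 4 genes that rose were Topbp1, Pold4, Pole4 and Chaf1a.

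Markers of the ovary's cell types moved over the same ages, in which 11.4% of all genes fell and 13.1% rose from early to late. The summed signal of 11 tested markers of germ cells before meiosis was 2552 to 2901 at 11.5 dpc, 3779 to 4929 at 12.5 dpc, 2266 to 3067 at 14.5 dpc, 1169 to 1250.1 at 16.5 dpc and 2909.8 to 2971 at 18.5 dpc. From early to late, 8 of these 11 fell and Ddx4 and Dazl rose. From 16.5 to 18.5 dpc, Dppa3 and Kit were called higher, where 0.588% of all genes were. At 18.5 against 11.5 dpc, Pou5f1, Nanog, Sox2, Dppa5a, Utf1 and Tfap2c were lower, and Dppa3, Kit, Ddx4 and Dazl higher. Over all genes, 8.37% were lower and 9.14% higher in that comparison. The similar sums at those 2 ages thus come from different genes. The sum of 12 meiotic prophase markers was 1879.7 to 1914 at 11.5 dpc, 13773 to 16869.9 at 14.5 dpc and 6986 to 8133 at 18.5 dpc, and 11 of the 12 rose from early to late. That of 12 pregranulosa markers was 12574 to 14484 at 11.5 dpc, 17133 to 19704 at 16.5 dpc and 15182 to 16425 at 18.5 dpc, with 7 higher and Gata4 lower. Among 8 markers of mesenchyme, 5 rose and 1 fell, and the sum was 2860.1 to 3001 at 11.5 dpc and 5280.2 to 7982 at 16.5 dpc. Of 5 surface epithelium markers 4 rose and 1 fell, of 9 oocyte markers 6 rose, of 11 erythroid markers 3 rose and 3 fell, of 8 endothelial markers 3 fell, and of 6 macrophage markers limma called 0, with 0 at an unadjusted p under 0.05. No tested marker was at 0 in any sample. The ratio of the 3' to the 5' Gapdh control probe sets was 0.829 to 0.845 in the early samples and 0.917 to 1.09 in the late ones. The part of these shifts in the fall of the replication genes was not tested.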

How the data were processed

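Signal intensities of 36701 probe sets that are not controls were deposited for 30 arrays, 10 samples on 3 array types, and the authors scaled them to a mean of 125, per the labels. No detection calls were used; which software made the signals was not stated in the labels. Replication genes were matched by platform symbol, using probe sets with 1 symbol. The members and all gene lists were chosen with earlier results of these data known. Values were taken as log2(signal + 16). Probe sets with a signal of at least 50 on at least 2 of 10 samples (24825) were fitted per array type with limma 3.58.1 (lmFit, eBayes with intensity trend; R 4.3.3) over the 5 ages, with no block. Benjamini-Hochberg adjustment covered the 3 array types together. Of a gene's tested probe sets, the one with the highest mean log2 signal stands for it. Members called in any comparison, and in each role without a call the brightest member, were described in full, and of other lists the 4 genes with the largest change. The procedure was tested on simulated data. The number of arrays, 2 an age, limits the precision. Alternatives covered the pseudocount, filter, scaling, trend, replicate block, adjustment, probe sets and leaving out each sample.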

Additional observations from a re-analysis of the deposited data

How the results depend on the processing

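The count of replication genes lower from early to late was within 1.5 times its value of 18 under every alternative run, and the call was kept under all 22 alternatives for Mcm2, Mcm3, Mcm4, Mcm7, Orc1, Cdc6, Cdt1, Pcna, Pola1, Rpa1, Fen1, Rrm1 and Rrm2, and for Pole2 under the 21 in which it was tested. No called result changed sign. Each median change was set against the replicate spread of its own comparison and moved by less than that, except from 12.5 to 14.5 dpc without replicate 2 of 14.5 dpc. The 2 medians nearest 0 changed sign: that from 16.5 to 18.5 dpc was -0.01 with the mean of a gene's probe sets, and both did so when 1 sample was left out. Lower genes between 14.5 and 16.5 dpc, 0 as reported, became 1 with a pseudocount of 64, 2 with a filter at 100, 2 after quantile normalization, 3 adjusted within each array type, 3 on array A alone (chosen after seeing the data) and 2 with only the ages compared in the fit. Between 12.5 and 14.5 dpc the 3 lower genes became 0 without the intensity trend and 1 with only the ages compared, where 2 genes were called higher. From 16.5 to 18.5 dpc, 1 gene was higher in that fit. Higher genes from early to late, 1 as reported, became 0 with median centring and 2 on array A alone. The cause was not tested.

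With the replicate number as a block, 1 gene (Rrm2) was lower from 12.5 to 14.5 dpc, and Gmnn was called lower from early to late. Deviations of same-numbered samples correlated between -0.05 and 0.10, so the numbers were not taken to pair the samples.

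Without 1 sample, lower genes ranged from 0 to 4 (12.5 against 11.5 dpc), 0 to 4 (14.5 against 12.5), 0 to 7 (16.5 against 14.5), 10 to 16 (18.5 against 11.5), and 15 to 21 (late against early). Higher genes ranged from 0 to 1 (14.5 against 12.5, and 18.5 against 16.5) and from 0 to 3 (18.5 against 11.5, and late against early). The F test called 12 to 20. The median change ranged from -0.14 to 0.09 (12.5 against 11.5), -0.11 to -0.05 (14.5 against 12.5), -0.60 to -0.39 (16.5 against 14.5), -0.01 to 0.12 (18.5 against 16.5), -0.49 to -0.21 (18.5 against 11.5) and -0.55 to -0.43 (late against early). Where 1 sample is left, it is assumed to vary like the other ages. The shares of all genes called in these fits are not given.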

Other observations

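Genes of mitosis and of the E2F pathway, from lists that hold no replication gene of the report, gave further cell cycle values. Of 20 mitosis genes listed, 19 were tested, and 14 fell and 1 rose from early to late, where 11.4% of all genes fell and 13.1% rose. Their median log2 change was -0.62, against 0.01 over all genes. Bub1b, a spindle checkpoint kinase-like protein, had signals of 439.7 and 422 (11.5 dpc), 359 and 440.4 (12.5 dpc), 167 and 294 (14.5 dpc), 182 and 91.6 (16.5 dpc), then 155 and 153 (18.5 dpc) and fell by 1.45 ± 0.21 (adjusted p = 0.0004). Aurka, a centrosomal mitotic kinase, fell by 1.42 ± 0.14 (adjusted p = 3e-05), Aurkb, the kinase of the chromosomal passenger complex, by 1.23 ± 0.28 (adjusted p = 0.009), and Cenpa, the centromeric histone, by 0.97 ± 0.15 (adjusted p = 0.00074). The gene that rose was Bub1, a spindle checkpoint kinase, with signals of 371 and 276 (11.5 dpc), 412 and 373 (12.5 dpc), 762 and 552 (14.5 dpc), 662 and 796 (16.5 dpc), then 583 and 615 (18.5 dpc) and a change of 0.87 ± 0.14 (adjusted p = 0.00088). Limma called 0 of the 19 between neighbouring ages, where 8 were lower and 0 higher at an unadjusted p under 0.05 from 14.5 to 16.5 dpc.

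Of 29 E2F and pocket protein genes listed, 28 were tested, and 6 fell and 4 rose from early to late. The shares of all genes were 11.4% and 13.1%, so the count that rose is near that of genes at large. Skp2, which marks p27 for destruction, had the largest fall, with signals of 2034 and 1347 (11.5 dpc), 881 and 1008 (12.5 dpc), 626 and 908 (14.5 dpc), 252 and 247 (16.5 dpc), then 159 and 146 (18.5 dpc) (-2.58 ± 0.18, adjusted p = 1.7e-06). E2f8, a repressor of the E2F family, and Cdc25a, a phosphatase that activates Cdk2, fell by 0.85 ± 0.18 (adjusted p = 0.005) and 0.85 ± 0.21 (adjusted p = 0.012). Ccnd2, a D-type cyclin, rose by 1.5 ± 0.31 (adjusted p = 0.0052), with 237 and 462 at 16.5 dpc against 23.5 and 116 at 11.5 dpc. The other genes that rose were Rb1, Cdk6 and Cdkn1b, the gene of p27.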
